A study of Mus musculus with 42 samples.

Results

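The nuclear genes for the subunits of the mitochondrial oxidative phosphorylation (OXPHOS) complexes were followed in mouse bone marrow mesenchymal stromal cells exposed to nuclear receptor ligands. Members were taken by symbol: every gene entry named Nduf with a subunit letter and number, Sdha to Sdhd, Uqcr, Cox4 to Cox8 or Atp5, with pseudogene entries left out. This gave 84 of the 45317 genes in the count table, 37 for complex I, 4 for complex II, 8 for complex III, 18 for complex IV and 17 for complex V (ATP synthase). The naming rule also takes in Cox7a2l, a supercomplex assembly factor, Ndufa4, which is now placed in complex IV, and Atp5s and Atp5sl, which are not core subunits. It misses Cyc1, cytochrome c1 of complex III, and Ndufab1, the acyl carrier subunit of complex I, which were read with other genes of the pathway.

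All cells came from C57BL/6 mice, were bought as early-passage stromal cells and were used undifferentiated at passage 9 to 10, after 24 h of attachment at 15000 cells/cm2. They then had 48 h with solvent alone (DMSO, 0.1%), rosiglitazone (ROSI, 100 nM), AGN194204 (4204 in the labels, 100 nM) or tributyltin (TBT, 50 nM), with 6 RNA libraries each. Rosiglitazone is a drug agonist of PPARγ, AGN194204 a rexinoid, that is, a ligand of RXR, the retinoid X receptor with which PPARγ pairs on DNA, and TBT an organotin pollutant known to activate RXR and PPARγ. The histone marks H3K4me3, found at active promoters, and H3K27me3, left by Polycomb, were mapped in 4 DMSO and 4 TBT libraries each. The labels do not say whether replicates were separate cultures, so p-values measure the spread between these libraries, which may be technical.

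Electrons from NADH and succinate enter the respiratory chain at complexes I and II, pass through ubiquinone, complex III and cytochrome c to complex IV, and there reduce oxygen. The protons pumped on the way drive ATP synthase. Most subunits are encoded in the nucleus and a small core in mitochondrial DNA, and nuclear respiratory factor 1 (NRF1), GABP, YY1 and the estrogen-related receptors (ERR) are known to bind promoters of the nuclear genes. Brown fat and muscle, which are rich in mitochondria, use tissue isoforms of some complex IV subunits.

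The promoters below, 250 bases before to 50 after the start site, are given for members on which the results turn. Uqcrh and Ndufs4 were called lower in TBT than in DMSO libraries (edgeR adjusted p under 0.05). Atp5g3 was called lower in TBT libraries only against rosiglitazone in the fit over all libraries. Sdha is a succinate dehydrogenase gene with 3 NRF1 matches, and Cox7a1 and Cox8b are muscle and brown fat isoforms that were almost silent. The promoters are RefSeq sequences of build GRCm38.p6, 5′ to 3′ on the gene's strand, and capitals mark letters that match a searched motif on either strand. Uqcrh lies at chr4:116075021-116075320 (minus strand), Ndufs4 at chr13:114388045-114388344 (minus), Atp5g3 at chr2:73911277-73911576 (minus), Sdha at chr13:74350191-74350490 (minus), Cox7a1 at chr7:30183921-30184220 (plus) and Cox8b at chr7:140900397-140900696 (minus).
Uqcrh: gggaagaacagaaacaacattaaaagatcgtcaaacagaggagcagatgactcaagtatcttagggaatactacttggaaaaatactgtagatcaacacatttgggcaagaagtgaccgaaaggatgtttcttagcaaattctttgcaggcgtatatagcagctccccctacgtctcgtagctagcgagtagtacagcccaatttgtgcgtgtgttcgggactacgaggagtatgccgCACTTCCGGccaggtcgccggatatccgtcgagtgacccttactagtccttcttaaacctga
Ndufs4: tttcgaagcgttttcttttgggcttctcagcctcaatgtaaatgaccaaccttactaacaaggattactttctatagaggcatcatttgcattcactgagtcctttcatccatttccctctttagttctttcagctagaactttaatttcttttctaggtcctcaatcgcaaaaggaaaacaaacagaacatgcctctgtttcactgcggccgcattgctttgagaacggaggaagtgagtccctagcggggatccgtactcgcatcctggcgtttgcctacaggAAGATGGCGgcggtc
Atp5g3: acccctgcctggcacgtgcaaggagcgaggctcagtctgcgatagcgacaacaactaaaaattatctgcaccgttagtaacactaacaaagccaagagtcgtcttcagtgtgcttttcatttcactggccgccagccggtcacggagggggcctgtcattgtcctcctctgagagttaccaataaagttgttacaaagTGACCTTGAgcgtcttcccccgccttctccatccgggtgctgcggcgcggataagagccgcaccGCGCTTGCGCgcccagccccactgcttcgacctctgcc
Sdha: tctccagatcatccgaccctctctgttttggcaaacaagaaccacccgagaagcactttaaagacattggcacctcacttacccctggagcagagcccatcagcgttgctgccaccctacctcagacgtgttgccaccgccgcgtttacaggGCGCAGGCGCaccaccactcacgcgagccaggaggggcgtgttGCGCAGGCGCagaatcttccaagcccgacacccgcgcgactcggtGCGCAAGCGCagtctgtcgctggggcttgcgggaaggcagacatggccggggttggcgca
Cox7a1: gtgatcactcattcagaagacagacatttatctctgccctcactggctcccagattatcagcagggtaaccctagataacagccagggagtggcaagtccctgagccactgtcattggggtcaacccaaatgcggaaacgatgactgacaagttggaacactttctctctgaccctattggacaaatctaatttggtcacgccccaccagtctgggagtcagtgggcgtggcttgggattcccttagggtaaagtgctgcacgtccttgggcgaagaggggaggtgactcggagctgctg
Cox8b: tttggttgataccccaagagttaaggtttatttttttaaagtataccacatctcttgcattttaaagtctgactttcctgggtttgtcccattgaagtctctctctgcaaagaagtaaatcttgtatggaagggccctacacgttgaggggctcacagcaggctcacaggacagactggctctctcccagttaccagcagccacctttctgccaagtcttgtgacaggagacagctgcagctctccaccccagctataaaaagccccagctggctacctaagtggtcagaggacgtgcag

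The motifs searched on both strands were NRF1 (GCGC, any base, TGCGC), the ETS site of GABPA (CCGGAAGTG), YY1 (AAGATGGCG), ERR (TCAAGGTCA) and DR1, the direct repeat bound by PPAR and RXR (AGGTCA, any base, AGGTCA). NRF1 letters stood in 18 of 75 member promoters (24.0%) against 4.60% of all 32851 promoters in the RefSeq table, and YY1 letters in 9 (12.0%) against 1.40%. ERR letters stood in 2 (2.67%, Atp5g3 and Sdhd) against 0.423%, and ETS letters in 2 (2.67%, Uqcrh and Ndufs3) against 2.03%. DR1 letters stood in 0 of 75, where 13 promoters of the whole table (0.0396%) had them. Member promoters held a median of 19 CpG pairs, against 7 over all promoters, and the NRF1 letters themselves hold CpG pairs. The part of CpG content in these shares was not tested. The 75 promoters belong to 69 members that matched the RefSeq table, 66 by symbol and 3 by an older name. Of these 69, 26 carried an NRF1, ETS or YY1 match, a share that was not counted over all genes. In the lines above the Uqcrh match is ETS, that of Ndufs4 YY1, those of Atp5g3 are ERR and then NRF1, and Cox7a1 and Cox8b had none.

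Libraries held 3801758 to 5347365 counts on genes, and members took 0.517% to 0.639% of them. All 10 stromal markers had counts, with a summed level of 3229 to 3831 CPM (reads relative to the library total, scaled by TMM over genes). Within that list Col1a1, Ly6a and Pdgfrb rose and Cd44 and Thy1 fell under TBT, and the part of this in the results below was not tested. Adgre1, a macrophage marker, had 0 counts in every group, as did Lep of the fat cell list. The second TBT library had the lowest member share (0.517%) and the second DMSO library the lowest of its group (0.559%). In the second TBT library 72 of 77 members lay below the TBT median, and in the second DMSO library 68 lay below the DMSO median, so counts of called members are also given without these 2 libraries where they move, a choice made after seeing the data. The second AGN194204 and rosiglitazone libraries also had the lowest summed member CPM of their groups (5770 and 6052) and stayed in that fit. Comparisons of these groups with TBT or DMSO thus lose the low library on a single side there. In all bulk samples here, fewer cells of a type and less RNA per cell cannot be told apart.

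Of the 84 members, 77 passed the filter on low counts, with 466 counts over the 24 libraries for the lowest (Atp5l). The 7 that did not were all isoforms of complex IV subunits found in special tissues: Cox4i2, Cox6a2, Cox6b2, Cox7a1, Cox7b2, Cox8b and Cox8c. Each had a ubiquitous partner with counts in all 24 libraries. Cox4i1 stood at a DMSO median of 150.6 CPM (139.0 to 162.6), while its lung isoform Cox4i2 had 1 count over the 6 DMSO libraries. Cox7a2 had a DMSO median of 50.2 CPM, against 6 counts for the muscle and brown fat isoform Cox7a1, which had 0 counts in TBT libraries (up to 0.114 CPM for a total of 3 counts over the group). Cox8a had a DMSO median of 72.4 CPM, against 0 DMSO counts for the muscle and brown fat isoform Cox8b (up to 0.110 CPM). Cox7b2 and Cox8c, known from testis, had 0 counts in all 4 groups, which allows up to 0.110 to 0.117 CPM in each. These limits cover counting error only.

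Cox6a2, the heart and muscle isoform of subunit VIa, was the exception among the silent isoforms. In DMSO libraries it had 0, 0, 4, 0, 1 and 0 counts. In TBT libraries it had 4, 8, 4, 1, 4 and 12. It summed to 5 counts in DMSO, 12 with rosiglitazone, 16 with AGN194204 and 33 with TBT, and the DMSO and TBT ranges overlapped. A fit without the filter gave 2.60 ± 0.69 on the log2 scale for TBT against DMSO (SE, n = 6 per group, edgeR adjusted p = 0.00293), and DESeq2 gave no adjusted p. The other 4 isoforms with counts did not pass in that fit in any comparison with DMSO. Of the 8 muscle markers, Myh1 and Myh6 had 0 counts in every library and the summed level was 4.24 to 7.65 CPM in DMSO and 2.26 to 4.23 CPM in TBT libraries. The 6 markers of mature and brown fat summed to 0 to 0.848 CPM in DMSO and 1.97 to 3.19 CPM in TBT libraries. The part of either in the Cox6a2 counts was not tested.

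TBT left nearly all OXPHOS subunit genes close to their DMSO level. Of 77 members tested, 1 rose (Ndufa4l2) and 3 fell (Uqcrh, Ndufs4 and Ndufb8), which is 5.19%, while 28.9% of all 12529 genes tested were called, 15% higher and 13.9% lower (edgeR quasi-likelihood test, Benjamini-Hochberg adjusted p under 0.05). Their median log2 fold change was -0.01, as was that of all genes. The 95% interval of the change lay within 0.32 of 0 on the log2 scale for 68 of 77 members (88.3%) and for 52.0% of all genes. The median SE was 0.06 for members and 0.08 for all genes, so precision bears on that count. Libraries of the 2 groups were fully apart for 0 members, against 11.7% of all genes. With libraries scaled by ERCC spike-in RNA, which moved the median of all genes by 0.09, the members' median was 0.08 and the calls were 5 higher and 0 lower. Over all genes that scaling gave 1802 higher and 293 lower. Without the second DMSO and TBT libraries 4 members were higher and 5 lower, where 1962 and 1853 of all 12570 genes tested were.

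**Figure D1:**
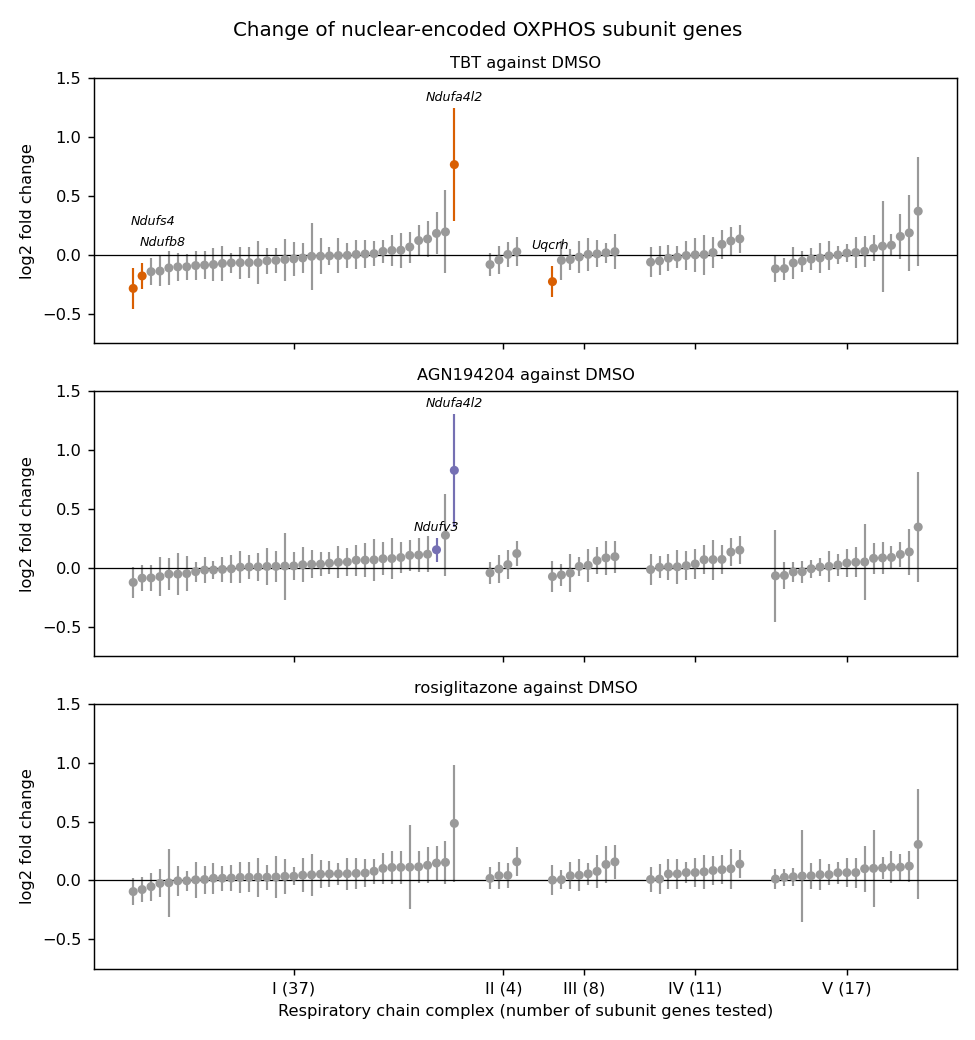
Log2 fold change against DMSO of the 77 OXPHOS subunit genes tested, ordered by size within each complex, with 95% intervals as bars. Coloured points are genes past the threshold: 4 with TBT, 2 with AGN194204 and 0 with rosiglitazone.

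In complex III, Uqcrh, the acidic hinge subunit next to cytochrome c1, fell under TBT. It ranged from 59.0 to 68.4 CPM in DMSO libraries with a median of 63.9, and from 47.2 to 61.5 with a median of 55.4 in TBT libraries. Every TBT library lay below the DMSO median, and the ranges overlapped. The log2 change was -0.23 ± 0.06 (SE, n = 6 per group, edgeR adjusted p = 0.00682). With ERCC scaling it stood at -0.14 and no longer passed (adjusted p = 0.213). The other 7 complex III genes lay between Uqcrh and 0.03 (Uqcr11), and none passed.

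In complex I, 2 of 37 genes fell under TBT. Ndufs4, an accessory subunit whose loss impairs complex I in mice, ranged from 30.2 to 37.7 CPM with a median of 34.2 in DMSO libraries and from 24.3 to 31.9 with a median of 27.2 in TBT libraries. Here too the ranges overlapped and every TBT library lay below the DMSO median. Its log2 change was -0.28 ± 0.08 (edgeR adjusted p = 0.00962), and -0.20 with ERCC scaling, where it no longer passed (adjusted p = 0.181). Ndufb8, a membrane arm subunit used as a marker of assembled complex I, ranged from 87.2 to 102.9 CPM with a median of 97.2 in DMSO and from 71.0 to 93.1 with a median of 88.8 in TBT. All 6 TBT libraries lay below the DMSO median. Its change was -0.18 ± 0.05 (edgeR adjusted p = 0.0131), and -0.09 with ERCC scaling (adjusted p = 0.326).

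Ndufa4l2, a paralogue of Ndufa4 known to be induced by hypoxia, had the largest change of the 77 members under TBT and under AGN194204. It ranged from 2.76 to 5.80 CPM with a median of 4.18 in DMSO, from 4.52 to 10.9 with a median of 6.24 in TBT and from 5.04 to 9.83 with a median of 7.49 in AGN194204 libraries. The rosiglitazone libraries ran from 2.96 to 8.87 CPM with a median of 6.21. The ranges overlapped in all 3 comparisons with DMSO, and libraries held only 12 to 53 counts. The log2 change was 0.77 ± 0.24 under TBT (edgeR adjusted p = 0.013), 0.83 ± 0.24 under AGN194204 (adjusted p = 0.0085) and 0.48 ± 0.25 under rosiglitazone (adjusted p = 0.465). Its TBT and AGN194204 calls held in every other setting tried (0.74 to 0.86 and 0.82 to 0.84). The partner Ndufa4 stood at 0.07 ± 0.06 under TBT and did not pass.

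**Figure D2:**
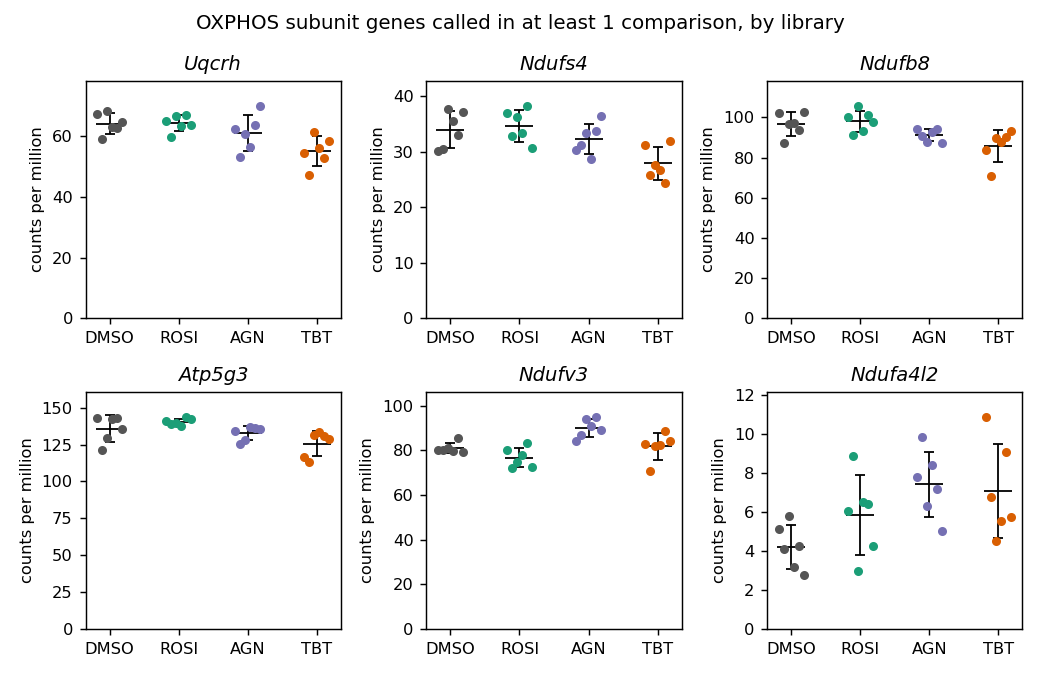
CPM (TMM-scaled) of 6 OXPHOS subunit genes in each of the 24 libraries, with the mean and SD of each group as bars and an axis from 0; AGN stands for AGN194204. Uqcrh, Ndufs4 and Ndufb8 have their lowest means in TBT libraries, and Ndufa4l2 stays under 11 CPM in all libraries.

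No gene of complexes II, IV or V passed under TBT. The succinate dehydrogenase genes, from the flavoprotein Sdha and the iron-sulphur subunit Sdhb to the membrane anchors Sdhc and Sdhd, stood at -0.08 ± 0.05, -0.04 ± 0.06, 0.01 ± 0.05 and 0.03 ± 0.06. The 11 complex IV genes tested lay between -0.06 (Cox5b) and 0.14 (Cox6c), and Cox6c had an adjusted p of 0.081 (edgeR). Among complex V genes, those for the 3 copies of membrane subunit c stood at -0.02 ± 0.06 (Atp5g1), 0.16 ± 0.10 (Atp5g2) and -0.11 ± 0.05 (Atp5g3). The mature subunit c is the same protein for all 3. Atp5g3 came nearest to the threshold, with an adjusted p of 0.0562 (edgeR). It fell with the replicate block and without the second DMSO and TBT libraries.

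Summed over a complex, TBT libraries had the widest SD of the 4 groups in complexes I, II, IV and V. Complex I summed to 2152 to 2341 CPM in DMSO libraries with a median of 2314, and to 1939 to 2364 with a median of 2297 in TBT libraries. Complex IV summed to 745 to 839 CPM with a median of 817 in DMSO and to 696 to 869 with a median of 850 in TBT. Complex V summed to 1757 to 1959 CPM in DMSO and 1680 to 2011 in TBT. The second TBT library had the lowest sum of all 24 libraries in all 5 complexes. It also had the lowest counts on mitochondrial DNA genes (0.267% of gene counts against up to 0.377%) and the fewest ERCC counts (0.326 per 100 gene counts against up to 0.502). The part of these in the sums was not tested.

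**Figure D3:**
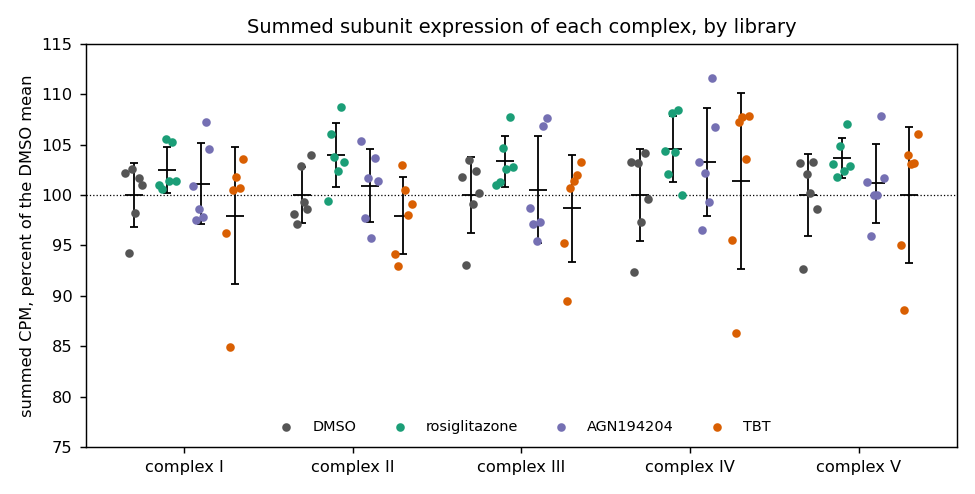
Summed CPM of the subunit genes of each complex in each library, as a percent of the DMSO mean, with the mean and SD of each group (n = 6) and an axis that starts at 75. In all 5 complexes the second TBT library is the lowest TBT point and the second DMSO library the lowest DMSO point.

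AGN194204 raised 2 members and lowered 0 of the 77 (2.60%), while 24.1% of all genes tested were called, 12.8% higher and 11.3% lower. Libraries were fully apart for 0 members and 11.6% of all genes. Besides Ndufa4l2 this was Ndufv3, a small subunit of the NADH-oxidising arm of complex I. Ndufv3 ranged from 79.3 to 85.7 CPM with a median of 80.2 in DMSO libraries and from 84.0 to 94.9 with a median of 90.1 in AGN194204 libraries. A single DMSO library reached into the AGN194204 range. Its log2 change was 0.15 ± 0.05 (edgeR adjusted p = 0.0255). It no longer passed with ERCC scaling (0.16, adjusted p = 0.143) or without the filter on low counts (0.15, adjusted p = 0.0725). The members' median change was 0.02, with 54 above and 23 below 0. Without the second DMSO and TBT libraries, and with the low second AGN194204 library kept, the median was 0.00, with 39 above and 38 below. In the fit over all libraries 71 of 77 intervals lay within 0.32 of 0 (92.2%, all genes 54.3%). Sdhc stood at 0.12 ± 0.05, Cox6c at 0.15 ± 0.06 and Cox8a at 0.13 ± 0.06, all short of the threshold (edgeR adjusted p = 0.0781, 0.065 and 0.106).

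Rosiglitazone called 0 of 77 members by edgeR and 0 by DESeq2, where edgeR called 1.04% of all genes, 0.615% higher and 0.423% lower. Libraries were fully apart for 0 members and 1.52% of all genes. At an unadjusted p under 0.05 edgeR listed 6 members (all genes 11.3%) and DESeq2 4. The members nonetheless lay to one side: 70 of 77 fold changes were above 0, with a median of 0.06, against 0.00 for all genes. All 4 members of complex II, all 8 of complex III, all 11 tested of complex IV and all 17 of complex V were above 0, and 30 of 37 of complex I. Other mitochondrial lists leaned the same way, with 55 of 76 ribosomal protein genes and 20 of 23 protein import genes above 0. So did 15 of 18 pyruvate dehydrogenase and tricarboxylic acid cycle genes and all 7 mitochondrially encoded subunits tested, but only 26 of 47 assembly factors. The lean was not confined to mitochondrial lists: 14 of 18 genes of glycolysis and lactate export were above 0 too. Of all genes tested, 6292 of 12529 were above 0. Members ran low together in some libraries, so they are not separate observations. With ERCC scaling 49 of 77 were above 0 with a median of 0.02, where the median of all genes was -0.04, and without the second DMSO and TBT libraries 59 were above 0 with a median of 0.03. Sdhd, with 0.16 ± 0.06, ranged from 67.4 to 78.0 CPM with a median of 70.5 in DMSO and from 73.1 to 88.3 with a median of 78.4 in rosiglitazone libraries. The ranges overlapped (edgeR adjusted p = 0.254).

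TBT and AGN194204, at 50 and 100 nM, differed in 0 members by edgeR and 0 by DESeq2, where 0.846% of all genes were called, 0.407% higher and 0.439% lower. Libraries were fully apart for 0 members and 0.918% of all genes. At an unadjusted p under 0.05 there were 5 members (all genes 10.1%). Ndufs4 stood lowest, at -0.21 with a 95% interval of -0.38 to -0.03, and Uqcrh at -0.15 with an interval of -0.28 to -0.02. Both intervals run from almost no difference to one as large as the changes called against DMSO. For 71 of 77 members (92.2%, all genes 66.5%) the interval lay within 0.32 of 0. Of the 77, 17 were above and 60 below 0, and without the second TBT and DMSO libraries 38 and 39. The second AGN194204 library, also the lowest of its group, was kept there, so the 2 sides were not treated alike.

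Against rosiglitazone, TBT libraries were lower in 7 members and higher in 0 (9.09%), where 28.7% of all genes were called, 15.2% higher and 13.5% lower. The 7 were Ndufs4, Ndufb8 and Ndufb7 of complex I, Uqcrh of complex III, and Atp5g3, Atp5f1 and Atp5o of ATP synthase, which make the subunit c ring, the peripheral stalk and the oligomycin-sensitivity subunit. Atp5g3 ranged from 137.9 to 143.6 CPM with a median of 140.2 with rosiglitazone and from 113.0 to 133.5 with a median of 129.8 with TBT, and Ndufb7 from 80.9 to 87.1 with a median of 82.9 and from 62.8 to 77.9 with a median of 75.7. For these 2 genes every TBT library lay below every rosiglitazone library, as for 12.3% of all genes in either direction. The changes were -0.16 ± 0.05 (edgeR adjusted p = 0.006) for Atp5g3 and -0.18 ± 0.05 (adjusted p = 0.0114) for Ndufb7. Those of the other 5 lay between -0.31 (Ndufs4) and -0.14 (Atp5f1). ERCC scaling moved the median of all genes by 0.13 here, left 1 member higher and 0 lower, and put the members' median at 0.06 in place of -0.06. Over all genes that scaling left 2426 higher and 172 lower. Without the second DMSO and TBT libraries the members' median was -0.02, with 28 above and 49 below 0 in place of 16 and 61. In that fit 5 members were called lower and 1 higher, where 1778 and 1988 of all 12570 genes tested were.

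AGN194204 against rosiglitazone called 1 member higher and 0 lower (1.30%), where 24.7% of all genes were called, 13.5% higher and 11.2% lower. Ndufv3 ranged from 72.3 to 83.4 CPM with a median of 76.2 with rosiglitazone, and every AGN194204 library lay above these. Libraries were fully apart for 2 members and for 11.4% of all genes; the other was Atp5g3, lower with AGN194204 at -0.08 ± 0.05 and not past the threshold (edgeR adjusted p = 0.194). The log2 difference was 0.23 ± 0.05 (edgeR adjusted p = 0.000965), and 0.28 with ERCC scaling (adjusted p = 0.00493). Between TBT and AGN194204 Ndufv3 stood at -0.14 ± 0.05 (adjusted p = 0.258, edgeR), and between TBT and DMSO at 0.01 ± 0.05. The DMSO and rosiglitazone groups each enter several of these comparisons, so the comparisons are not independent.

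Mitochondrially encoded subunits, of which 7 of 13 passed the filter, held no called gene in any comparison with DMSO by edgeR; the TBT values lay between 0.03 (mt-Nd4) and 0.07 (mt-Nd1). Among 10 subunits and carriers outside the naming rule, Etfa and Etfb, which pass electrons from fat oxidation to ubiquinone, rose under TBT by 0.27 ± 0.05 and 0.21 ± 0.05 and under AGN194204 by 0.20 ± 0.05 and 0.23 ± 0.05. Gpd2, the mitochondrial glycerol phosphate dehydrogenase, fell by 0.38 ± 0.07 under TBT and by 0.28 ± 0.07 under AGN194204, a call that ended with ERCC scaling. Cyc1 stood at -0.06 ± 0.05, Cycs (cytochrome c) at 0.05 ± 0.08 and Ndufab1 at -0.21 ± 0.08 under TBT, none past the threshold, and Ndufab1 with an adjusted p of 0.0511 (edgeR). Of 47 assembly factors tested, 4 rose and 3 fell under TBT, 14.9% against 28.9% of all genes. Cox18, which inserts a core complex IV subunit into the membrane, rose by 0.42 ± 0.08 and Coa3 by 0.30 ± 0.07. Atpaf2, an ATP synthase assembly factor, fell by 0.24 ± 0.07. With ERCC scaling the 4 rises stayed called and 0 were lower.

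Several other mitochondrial lists held called genes, most of them lower under TBT, and those falls were mostly not called with ERCC scaling. Of 76 mitochondrial ribosomal protein genes, 12 fell under TBT, led by Mrps7 (-0.19 ± 0.05) and Mrps30 (-0.27 ± 0.07), and Mrps18b rose by 0.23 ± 0.09. That is 17.1% called in either direction, against 28.9% of all genes. The 12 of 76 that fell stand beside 13.9% of all genes called lower, and with ERCC scaling 0 fell. Of 18 genes of pyruvate dehydrogenase and the tricarboxylic acid cycle 4 fell under TBT (22.2%, against 13.9% of all genes called lower). Among them were Sucla2, a succinyl-CoA ligase subunit (-0.21 ± 0.04), and Pdha1 (-0.12 ± 0.04), and 0 of the list fell with ERCC scaling. Among 18 genes of glycolysis and lactate export, hexokinase 2 (Hk2), the glucose transporter Slc2a1 and Gapdh fell under TBT by 0.39 ± 0.06, 0.26 ± 0.04 and 0.17 ± 0.05. That is 16.7% of the list, against 13.9% of all genes called lower. With ERCC scaling Hk2 alone was lower and Aldoa was higher. Ucp2, a mitochondrial anion carrier, rose by 0.56 ± 0.04 under TBT and 0.47 ± 0.04 under AGN194204, and stayed called with ERCC scaling. Of 23 protein import genes tested, Tomm40 fell under TBT (-0.12 ± 0.04), and of 12 coenzyme Q genes Pdss1 fell (-0.34 ± 0.11), both short of the threshold with ERCC scaling. Coq10a stood at 0.33 ± 0.13, a call that DESeq2 did not make. The calls of Tomm40, Coq10a and Mrps18b were also lost without the filter and in the fit of only the 12 libraries compared.

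Among 20 regulators tested, Hif1a, the hypoxia-inducible factor subunit, rose by 0.40 ± 0.04 under TBT and by 0.28 ± 0.04 under AGN194204, with every library of either group above every DMSO library. Myc rose by 0.24 ± 0.04 and the mitochondrial DNA polymerase gene Polg by 0.26 ± 0.06 under TBT. Peo1, the mitochondrial helicase gene, stood at -0.16 ± 0.06, past the threshold over all libraries and with the replicate block, and short of it in the other 5 settings, DESeq2 and ERCC scaling among them. In the fit over all libraries the classic activators of OXPHOS genes did not pass under TBT: Ppargc1a (PGC-1α) stood at -0.10 ± 0.25, Ppargc1b at -0.30 ± 0.25, Esrra at 0.04 ± 0.07, Nrf1 at -0.12 ± 0.06 and Tfam at -0.15 ± 0.07. Without the second DMSO and TBT libraries Esrra was called higher and Gabpa lower. Under AGN194204 3 regulators fell (Gabpb1, Peo1 and Pprc1) and 3 rose, 30.0% against 24.1% of all genes, and with ERCC scaling Hif1a alone was called. Rosiglitazone moved 1 gene of all these lists past the threshold, the lactate carrier Slc16a1, which rose by 0.14 ± 0.04, a call lost with ERCC scaling, without the filter and without the second DMSO and TBT libraries.

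**Figure D4:**
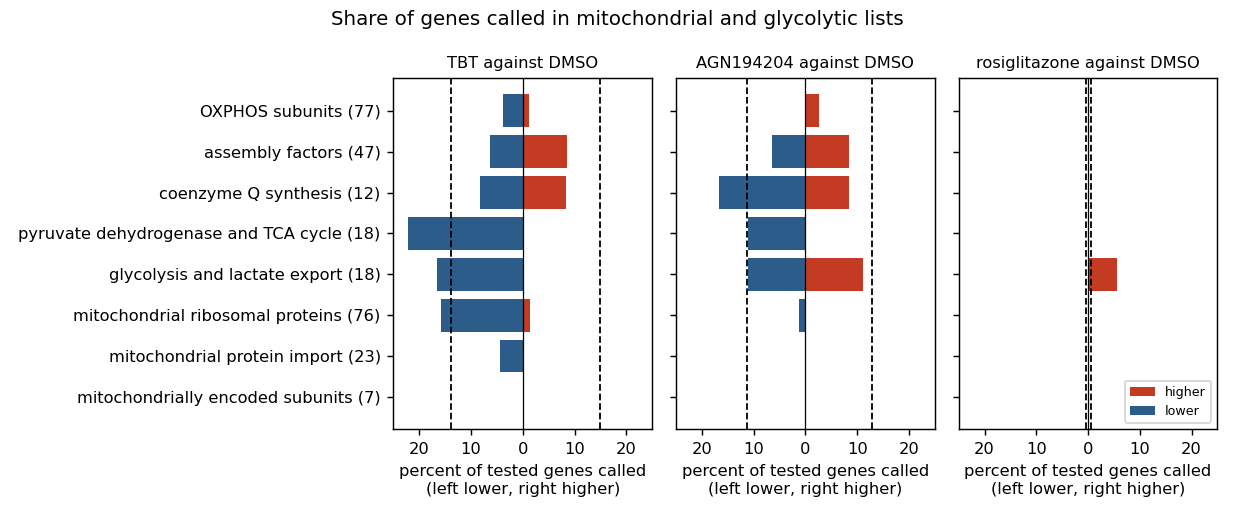
Percent of tested genes called higher (to the right) and lower (to the left) against DMSO in the OXPHOS subunits and 7 other lists, with the number of genes tested in brackets. Dashed lines give the percent of all 12529 genes called in each direction; under TBT the subunits stay inside both lines.

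At the chromatin level, expressed members had H3K4me3 islands about as often as other expressed genes. Each of the 65 expressed members with a start site had an H3K4me3 island within 1 kb in all 8 libraries, expressed meaning past the RNA filter, as did 94.7% of 9028 expressed genes, and the islands covered the start site itself. The 4 silent members with a start site, Cox6b2, Cox7a1, Cox7b2 and Cox8b, had one in 0 of 8 libraries, as did 46.7% of all 27025 genes. The silent Cox4i2, Cox6a2 and Cox8c had no start site in the RefSeq table and were not read. The promoters of the 65 held 5 to 43 CpG pairs per 300 bases with a median of 20, and those of the 4 held 2 to 10 with a median of 8.5. The median over all promoters was 7. Group medians of the authors' fold over input ran from 3.56 to 29.1 over the 65 members. Uqcrh had a median fold of 11.4 in DMSO and 17.2 (16.7 to 17.6) in TBT libraries, and Ndufs4 22.1 (13.6 to 32.0) and 20.4 (13.9 to 21.9). The TBT range of Uqcrh lay above its DMSO range, while the ranges of Ndufs4 overlapped.

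By ChIP read counts in merged regions, no member promoter passed the test between TBT and DMSO. Of 65 member regions tested 0 were called by edgeR, where 0.164% of 12813 regions were called, and 5 had an unadjusted p under 0.05 (7.69%, against 8.18% of all regions). The log2 changes lay between -0.26 (Ndufb7) and 0.14 (Ndufb4) with a median of -0.02. The smallest adjusted p was 0.358, at Ndufv1, whose region had a DMSO median of 69.1 and a TBT median of 59.9 CPM without overlap. The authors' fold over input at the Ndufv1 start went the other way, with a median of 4.01 in DMSO and 7.73 in TBT libraries. By read counts the ranges did not overlap at Atp5g1 (lower in TBT) and Ndufb4 (higher in TBT) either, by narrow gaps. At Atp5g1 the lowest DMSO value was 62.6 and the highest TBT value 62.2 CPM (edgeR adjusted p = 0.515). At Ndufb4 the highest DMSO value was 35.3 and the lowest TBT value 35.9 CPM (edgeR adjusted p = 0.768). How often ranges stayed apart over all regions was not counted, so no result is drawn from these. At the 3 genes whose RNA fell, the change was 0.06 ± 0.05 (Uqcrh), 0.05 ± 0.10 (Ndufs4) and 0.03 ± 0.06 (Ndufb8). For 58 of 65 regions the 95% interval lay within 0.32 of 0. Regions were up to 56000 bases wide and can hold neighbouring promoters.

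The authors' fold over input was not tested, and the overlap of its ranges is a different measure from the calls above. The fold did not overlap between the 4 DMSO and 4 TBT libraries at 14 of 65 members (21.5%), against 13.4% of 8550 expressed genes with islands in all 8 libraries. TBT libraries were above at 11, Atp5o, Cox6a1, Ndufa10, Ndufa13, Ndufb5, Ndufs5, Ndufs8, Ndufv1, Sdhd, Uqcrfs1 and Uqcrh, and below at Atp5s, Ndufa1 and Ndufs6. Over the 8550 genes they were above at 997 and below at 149, so the same side was the more frequent there too. Sdhd, a membrane anchor of complex II, had a median fold of 7.36 in DMSO and 15.4 in TBT libraries. Ndufs6, a zinc-binding subunit of complex I, had medians of 13.3 and 6.94. The labels give 1 input library per treatment, so a difference in fold between treatments and one between their inputs cannot be told apart.

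**Figure D5:**
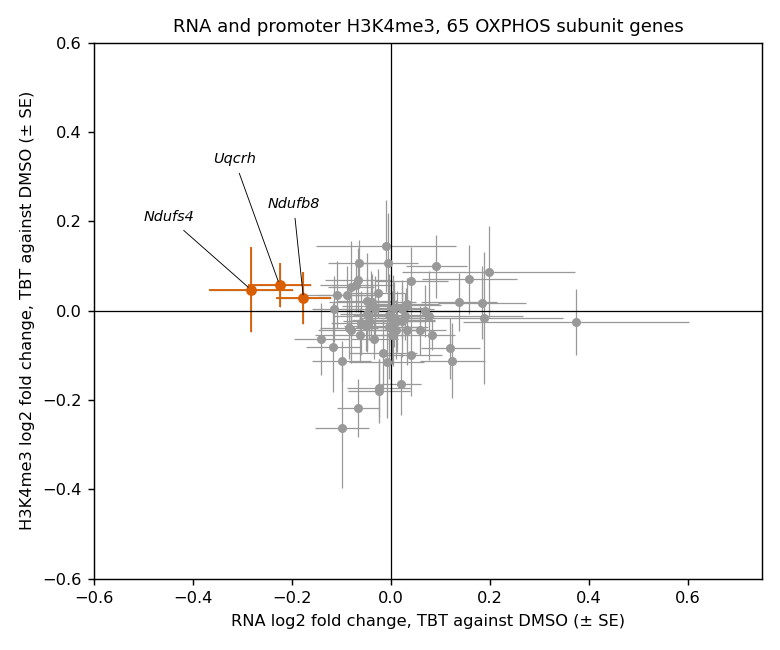
RNA against H3K4me3 log2 fold change, TBT against DMSO, for the 65 OXPHOS subunit genes with a promoter region, each with its SE (RNA n = 6, H3K4me3 n = 4 per group). The coloured genes are the called ones; Uqcrh, Ndufs4 and Ndufb8 are lower in RNA and lie near 0 for the mark.

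H3K27me3 islands at member start sites were about as rare as at other expressed genes. An island lay within 1 kb in all 8 libraries for 0 of 69 members, against 2.16% of expressed genes and 5.71% of all 27025 genes in the RefSeq table. Of the 65 expressed members, 45 had no island called in any of the 8 libraries (69.2%, against 67.6% of expressed genes). With the 4 silent ones included, this held for 49 of 69 members (71.0%, against 60.6% of all genes). The other 20 had an island in 1 to 4 libraries. Ndufa8 had one in 2 DMSO and 2 TBT libraries, and Ndufb7 and Ndufa9 in 3 TBT and 0 DMSO libraries, with folds over input of 1.09 to 2.05 over the 20 genes. The authors' deposited table of 4329 differential H3K27me3 peaks holds 1 at a member, chr2:174461200-174469799 over Atp5e, the ATP synthase epsilon subunit, with log2 concentrations of 0.76 in DMSO and 5.12 in TBT and an FDR of 0.00396. In the island lists, 1 TBT library of the 8 had an island within 1 kb of the Atp5e start, at a fold of 1.26. The rest of that peak was not searched for islands. The RNA of Atp5e stood at -0.07 ± 0.07 under TBT and did not pass. The authors' deposited table for H3K4me3, with 246 peaks, holds 0 within 1 kb of a member's start.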

How the data were processed

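RNA was measured in 24 libraries (6 for each of DMSO, ROSI, AGN194204 and TBT), and each histone mark in 4 DMSO and 4 TBT libraries. The deposited table holds raw read counts per gene symbol, with 92 ERCC spike-in entries. Per the submitters' processing notes STAR, SAMtools, FastQC, DESeq2, SICER and DiffBind were used with builds GRCm38 and mm10; versions, the read counter and its strand setting are not given in the sources used here. The deposited island lists give ChIP and input read counts, a p-value, a fold over input and an FDR for each island of each library, per the file headers. The authors' deposited tables of differential peaks give log2 concentrations, log2 folds and p-values.

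Unassigned reads (20.9% to 24.3% no feature, 1.85% to 2.02% ambiguous) stayed out. Members with processed pseudogenes may share reads with them, and 3 pseudogene entries were left out. One edgeR 4.0.16 quasi-likelihood fit (R 4.3.3) over all 24 libraries used TMM scaling and filterByExpr, which left 12529 genes. p-values were adjusted over all of them by Benjamini-Hochberg, and an adjusted p under 0.05 is a call. Intervals are 95%. For H3K4me3, islands were merged over libraries, and the 12813 of 42705 regions with an island in all 8 libraries were tested on ChIP counts in the same way, without input. A member's region had an island within 1 kb of a RefSeq start site. Only regions called in every library enter, so counts in them depend on each library's calling. Both tests were run on simulated data first.

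Members named are up to 8 called ones in each direction of a comparison by adjusted p, the highest and lowest fold change of each complex, the paralogue and isoform pairs, Sdha to Sdhd, Atp5s and Atp5sl. From other lists the first 2 called genes in each direction and a set of known regulators and carriers are named, in part. Genes named outside this rule (Ndufv1 and others of the chromatin data, Gapdh, Aldoa, Polg and the marker genes) were chosen after their values were seen. The members and lists were chosen with earlier results of these data known. Alternatives were DESeq2 1.42.0, ERCC scaling, no filter, a replicate block and fewer libraries. The inputs as separate libraries were not analysed here, and sequencing runs are not given. Replicate numbers were not taken as pairs in the main fit. After removal of group means, same-numbered RNA libraries correlated at -0.05 to 0.12, with a median of 0.02 against -0.01 for other pairs. In all 4 groups, though, the second library had the lowest summed CPM of members. A shared effect of the replicate number on members was not tested.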

Additional observations from a re-analysis of the deposited data

Results flagged for a closer look

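Of 120 sets of 6 libraries (1 member in 1 treatment), 8 had an end library far from the rest; chance gives about 1 in 20. The second TBT library was far below the others for 3 members: Ndufv3 (70.7 CPM, the nearest at 82.1), Ndufb7 (62.8, nearest 75.0) and Cox6a1 (85.1, nearest 103.8). The second DMSO library was far below the others for Cox6a1 (98.8 CPM, nearest 107.3) and Ndufa4 (65.5, nearest 70.7). The other 3 were high values: Ndufv3 in the fifth DMSO library (85.7 CPM, nearest 81.1), Atp5g1 in the fifth AGN194204 library (66.0, nearest 59.0) and Cox8a in the fifth rosiglitazone library (81.2, nearest 76.4).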

How the results depend on the processing

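Counts of called members moved most with ERCC scaling: TBT against DMSO became 5 higher and 0 lower, AGN194204 against DMSO 1 higher, and TBT against rosiglitazone 1 higher (Ndufv3) and 0 lower. Over all genes TBT against DMSO then had 1802 higher and 293 lower, in place of 1878 and 1745. Without the second DMSO and TBT libraries, chosen after seeing the data, TBT against DMSO had 4 higher and 5 lower, TBT against rosiglitazone 1 higher, and AGN194204 against rosiglitazone 1 lower (Uqcrc2). Over all 12570 genes of that fit TBT against DMSO had 1962 higher and 1853 lower. Without the filter TBT raised 2 (Cox6a2 added) and AGN194204 1. With the replicate block TBT against DMSO had 2 higher and 4 lower, and AGN194204 against DMSO 3 higher. TBT against rosiglitazone then had 9 lower and AGN194204 against rosiglitazone 1 lower. The cause of these moves was not tested. DESeq2 gave the same counts in all 6 comparisons. Of 150 fold changes of single members, 0 reversed a call; 11 calls were lost with ERCC scaling. H3K4me3 calls at members stayed at 0, also with each library left out in turn (0 to 0) and with the replicate block. ERCC counts were few, 0.326 to 0.502 per 100 gene counts, which limits that scaling, and Ndufa4l2 rests on 12 to 53 counts per library.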
